A study of Mus musculus with 10 samples.

Results

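The messenger RNA levels of 45 genes of DNA replication and cell division were followed in mouse embryonic stem (ES) cells that left the naive state with or without doxycycline (DOX). The genes were a fixed list of symbols, 27 for replication and 18 for mitosis, kept where the 10 libraries together held at least 10 reads. All 45 met that rule, out of 31053 listed genes of which 14581 had a total of at least 10 reads. All 45 also passed the filter on low counts, which left 11215 genes for testing. The 2 sets are described apart.

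All 10 libraries came from E14 ES cells that were stably transfected with an Esrrb construct inducible by DOX, so the control groups carried the construct too. Esrrb, an orphan nuclear receptor, helps to hold the naive state. In the first group (4 libraries) the cells were in serum-free N2B27 medium with 2iL, which is LIF together with CHIR99021 (3 µM), a blocker of GSK3, and PD0325901 (1 µM), a blocker of MEK. In the other groups 2iL was taken away a day after plating, and the cells were harvested 96 h later in N2B27 alone (3 libraries) or in N2B27 with DOX (3 libraries). No label gives the dose of DOX or says whether the transfected line was 1 clone. There were no cells without the construct and no 2iL cells with DOX, so an action of DOX itself and an action of Esrrb cannot be told apart. Library titles name experiments 1 and 2, and no label states that libraries were separate cultures, so the spread behind each p-value may be technical.

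A cell copies its genome once per division. In G1 the origin recognition complex (Orc proteins), Cdc6 and Cdt1 load the ring of Mcm2 to Mcm7 on DNA. In S phase Cdc45 and the GINS complex turn that ring into an active helicase, after which primase, the polymerases and the Pcna clamp with its loader build the new strands. Many of these genes are transcribed around the G1/S boundary through E2F sites. Mitosis follows in G2/M, when cyclins A and B with Cdk1, the polo and aurora kinases, the spindle motors and the spindle checkpoint act, and many of their genes are transcribed late in the cycle through CHR and CCAAT elements. Mouse ES cells divide fast, and the lengths of the cycle phases in these cultures were not measured here.

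The libraries held 1253620 to 4715450 reads in genes. Levels are CPM, the reads of a gene as a share of its library, scaled by TMM, a factor that corrects for composition, and since the reads were from the 3′ ends of polyA RNA they are compared between samples and not between genes. The 96 h DOX library exp1_2 stood apart. It was the shallowest, it correlated with the other DOX libraries at r = 0.862 and 0.886 against 0.945 between those (log2 CPM across genes), and its mitochondrial protein genes held 3.10% of reads against 0.559% to 1.27% elsewhere. Ribosomal protein genes held 7.49% of its reads against 14.1% to 17.8% elsewhere, and Gm42418, which lies over a ribosomal RNA repeat, 14.8% against 3.39% to 6.61%. Its summed level of 8 fibroblast markers was 1938 CPM, against 1.998 to 21.2 CPM in the other 9. The calls and fold changes of the DOX group are therefore also given without it. Esrrb reads were at 229 to 378 CPM in 2iL, 13.6 to 32.0 CPM without DOX and 12.8 to 27.04 CPM with DOX, and 3′ reads check the construct only where it carries the gene's own 3′ end, which no label states. The summed level of 8 ES cell markers was 1353 to 1526 CPM in 2iL, 716 to 805 without DOX and 1332 to 1597 with DOX. The similar sums in 2iL and with DOX hid opposite changes. With DOX against 2iL Utf1 was higher (log2 fold change 2.28), and Nanog (-2.73), Fgf4 (-1.27) and Zfp42 (-1.20) were lower (adjusted p below 0.05, edgeR). All of these also passed without exp1_2. The 9 primitive endoderm markers summed to 19.9 to 28.1, 22.0 to 31.4 and 296 to 500.2 CPM in the same order, with Sox7 at 0 in the groups without DOX. The 7 neural markers summed to 232 to 783, 1171 to 1816 and 329 to 822 CPM. Tubb3 alone was at 170 to 714 CPM in 2iL and 113 to 561 CPM with DOX. With DOX against 2iL Sox11, Sox1 and Sox3 were higher, at log2 fold changes of 2.34, 1.82 and 1.40 (adjusted p below 0.05, edgeR). No neural marker passed as lower there, and Sox1 did not pass without exp1_2. The 6 macrophage markers summed to 58.9 CPM in DOX library exp1_2 and to 8.52 to 31.3 CPM in the other 9, where nearly all of it was Cd68. Ptprc, Lyz2 and Csf1r were at 17.7, 16.2 and 19.9 CPM in exp1_2 and at 0 to 0.431 CPM in the other 9. A part of these other cell states in the results below was not tested, and in bulk RNA fewer cells in a cycle phase and less RNA per cell cannot be told apart.

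The promoters of both sets held known cell cycle elements. RefSeq windows on build GRCm38.p6 were found for 36 of the 45 genes (37 windows, 2 of them for Mcm7), and the 250 bases before each start were searched on both strands. The motifs were the CHR element (TTTGAA), the CCAAT box (CCAAT) and 4 E2F cores (TTCCCGC or TTCGCGC or TTGCCGC or TTGGCGC). An E2F core stood in 12 of 22 replication windows (54.5%) and 3 of 15 mitosis windows (20%), beside 7.89% of all 32851 windows. A CHR element stood in 3 replication windows (13.6%) and 6 mitosis windows (40%), beside 16% of all. CCAAT boxes were in 17 replication windows (77.3%) and 13 mitosis windows (86.7%), beside 33.8% of all, and 2 or more were in 8 (36.4%) and 9 (60%), beside 10.1%. The difference between the sets was not tested, and a match describes letters and not a bound site. In GENCODE vM21 16 of the 37 member windows hold exon bases of their own gene, from transcripts that start further upstream.

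The windows of 4 genes are shown because they carry these elements next to genes whose levels are followed below, with the matches to any of the 3 motif kinds in capitals and the RefSeq transcription start just after the last base. No annotated exon lies within these 4 windows. Mcm5 chr8:75109259-75109508 (plus strand) and Mcm6 chr1:128359706-128359955 (minus strand) belong to replication genes that fell with DOX against 2iL, and both hold E2F cores. Ccnb2 chr9:70421555-70421804 (minus strand) and Mki67 chr7:135716380-135716629 (minus strand) are mitosis promoters with a CHR element and 3 CCAAT boxes each. Neither Ccnb2 nor Mki67 passed the test below in any comparison.
Mcm5: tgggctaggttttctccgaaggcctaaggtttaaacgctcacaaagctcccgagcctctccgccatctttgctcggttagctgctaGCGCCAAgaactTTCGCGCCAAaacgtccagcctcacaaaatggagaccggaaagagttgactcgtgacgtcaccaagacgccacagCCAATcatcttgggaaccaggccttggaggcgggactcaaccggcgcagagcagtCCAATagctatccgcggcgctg
Mcm6: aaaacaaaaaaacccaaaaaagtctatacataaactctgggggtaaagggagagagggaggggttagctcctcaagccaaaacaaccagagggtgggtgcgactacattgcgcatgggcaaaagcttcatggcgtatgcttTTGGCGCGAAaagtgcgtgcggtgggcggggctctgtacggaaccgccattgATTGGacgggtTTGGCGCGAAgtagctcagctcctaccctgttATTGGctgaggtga
Ccnb2: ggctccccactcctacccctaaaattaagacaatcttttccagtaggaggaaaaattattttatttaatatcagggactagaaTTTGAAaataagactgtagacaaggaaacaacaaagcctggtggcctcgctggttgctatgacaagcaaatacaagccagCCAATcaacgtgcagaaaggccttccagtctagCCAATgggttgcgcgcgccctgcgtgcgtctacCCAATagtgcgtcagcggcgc
Mki67: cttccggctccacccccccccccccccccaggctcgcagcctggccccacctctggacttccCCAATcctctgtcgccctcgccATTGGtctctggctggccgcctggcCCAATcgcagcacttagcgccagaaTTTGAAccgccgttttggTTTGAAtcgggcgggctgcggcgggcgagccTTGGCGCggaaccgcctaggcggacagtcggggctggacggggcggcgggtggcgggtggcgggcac
Mcm5 held 3 matches to an E2F core, 2 of which overlap, and Mcm6 held 4 in 2 overlapping pairs. Each of these 2 promoters also had 2 CCAAT boxes. Mki67 held 2 CHR elements and 1 E2F core. The window of Cdt1 held none of the 3 kinds, and that of Bub1b held 1 CCAAT box alone. No window was found for Aurkb or Tpx2, which, like Bub1b, rose with DOX against 2iL.

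The summed level of the 27 replication genes was highest in 2iL and lowest with DOX, and the 3 groups did not overlap. The sums were 4268, 4200.5, 4154 and 3987 CPM in 2iL (in the order exp1_1, exp1_2, exp2_1, exp2_2), 3593, 3603 and 3551 CPM at 96 h without DOX (exp1_1, exp1_2, exp2_2), and 2970.4, 2697 and 3052 CPM with DOX (exp1_1, exp1_2, exp2_1). These orders hold for every list of values below. The 18 mitosis genes summed to 3460.4, 2960.3, 2117 and 2241 CPM in 2iL, 3077, 2634 and 3258 CPM without DOX, and 3372, 3384 and 3167 CPM with DOX. Within 2iL the 2 experiments stood apart for mitosis, with both libraries of experiment 1 above both of experiment 2, so that the 2iL range covered the no-DOX range and overlapped the DOX range. The ratio of mitosis to replication sums was 0.510 to 0.811 in 2iL, 0.731 to 0.917 without DOX and 1.04 to 1.25 with DOX. The DOX libraries had the highest ratios, and the other groups overlapped. With exp1_2 left out, the 2 DOX libraries still had ratios of 1.04 and 1.14. For the 38 further replication genes read below, the sums were 5931.9 to 6764.5 CPM in 2iL and 5069.5 to 6588 CPM without DOX, which overlap. With DOX they were 3854.4 to 5041.7 CPM, so the separation of all 3 groups was seen in the 27 members and not in that list. A sum is weighted to the abundant genes and is given as a description.

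**Figure D1:**
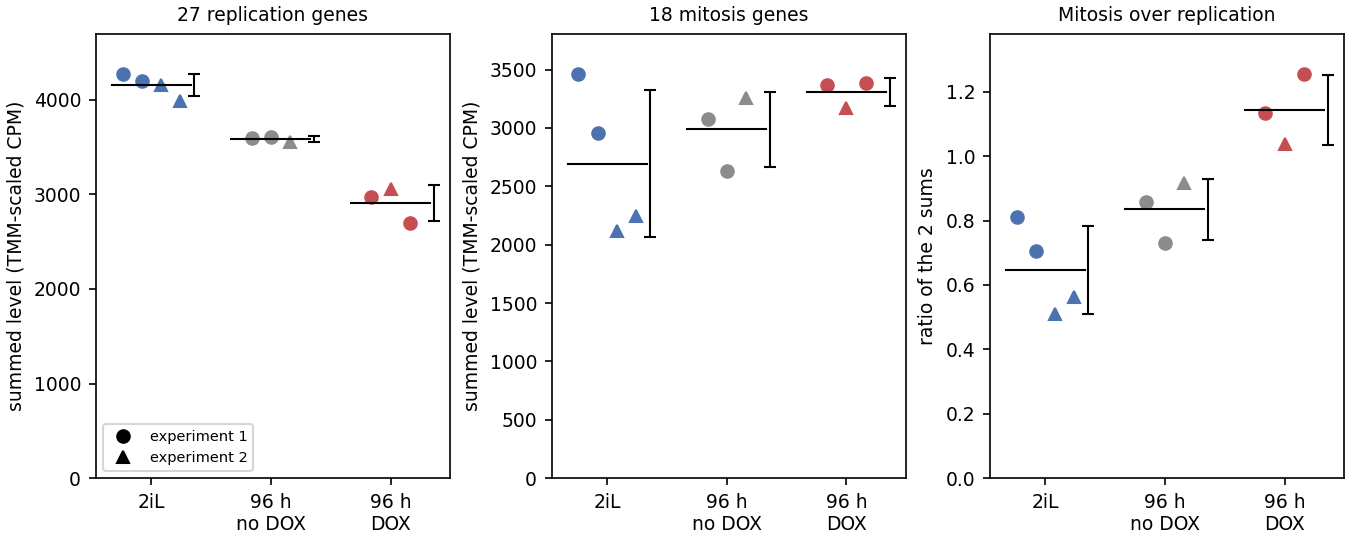
Summed TMM-scaled CPM of the 27 replication genes (left), of the 18 mitosis genes (middle) and their ratio (right) for each library by group; circles are experiment 1, triangles experiment 2, lines the group mean and bars 1 SD. The replication sums of 2697 to 3052 CPM with DOX lie below all no-DOX libraries (3551 to 3603) and all 2iL libraries (3987 to 4268), while the mitosis sums overlap.

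No member passed the test at 96 h without DOX against 2iL. With edgeR's quasi-likelihood test, adjusted by Benjamini-Hochberg over 11215 genes, 0 of 27 replication genes and 0 of 18 mitosis genes were called, while 11.5% of all tested genes were called higher and 8.90% lower. At an unadjusted p below 0.05, 2 replication genes (Cdc6 and Cdt1; 7.41%) were lower and no mitosis gene passed, beside 14.1% of all genes lower and 16.6% higher. DESeq2 and limma-voom each called 1 replication gene, Cdc6, and no mitosis gene. Values of 5 replication genes (Mcm2, Mcm3, Cdc6, Cdt1 and Prim1) were lower without overlap, which was so for 14.8% of all genes. No member was higher without overlap, against 16.1% of all genes. The median log2 fold change was -0.22 over the replication genes, with 22 of 27 below 0, and 0.23 over the mitosis genes, with 14 of 18 above 0. Over all genes it was 0.00. The mitosis median was 0.00 in experiment 1 and 0.51 in experiment 2, and the replication median was -0.20 and -0.34.

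Between 96 h with and without DOX no member passed the test either. Calls with edgeR were 0 of 27 and 0 of 18, and DESeq2 and limma-voom also gave 0. Among all genes 2.16% were called higher and 0.945% lower. At an unadjusted p below 0.05, 5 replication genes (Mcm5, Mcm6, Cdt1, Gins2 and Rfc3; 18.5%) were lower beside 6.54% of all genes, and 3 mitosis genes (16.7%) were higher beside 8.48%. Those 3 were Bub1, Bub1b and Mad2l1, which are all 3 spindle checkpoint genes of the list but not the whole checkpoint. Bub3, Mad1l1 and Ttk, spindle checkpoint genes outside the list, overlapped between the groups. Bub3 was at 177 to 198 CPM without DOX and 141 to 197 CPM with DOX. In the same order Mad1l1 was at 22.0 to 36.2 and 21.2 to 32.3 CPM, and Ttk at 65.2 to 111 and 50.4 to 164 CPM. Values were lower without overlap for 5 replication genes (Mcm3, Mcm5, Cdt1, Gins4 and Rfc3), a share of 18.5% beside 8.74% of all genes, and higher without overlap for 4 mitosis genes (Bub1, Bub1b, Mad2l1 and Tpx2), 22.2% beside 9.98%. Without DOX library exp1_2, 4 replication genes were lower at an unadjusted p below 0.05 (14.8% beside 5.41%) and 2 mitosis genes, Bub1b and Mad2l1, were higher (11.1% beside 6.57%). Cdc45 was then higher too. Without it 7 replication genes were lower without overlap (25.9% beside 13.4%) and 6 mitosis genes higher (33.3% beside 14.1%). The replication median was -0.08 (-0.09 without exp1_2). Scaling libraries by their totals alone moved it to 0.02 and moved the median over all genes alike, from -0.02 to 0.08. The mitosis median was 0.36, or 0.26 without that library.

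Cells at 96 h with DOX differed from 2iL cells in 6 members, 3 replication genes that were lower and 3 mitosis genes that were higher. Cdt1, Mcm6 and Mcm5 fell, and Tpx2, Bub1b and Aurkb rose (adjusted p below 0.05, edgeR's quasi-likelihood test). That is 3 of 27 replication genes lower (11.1%) beside 6.83% of all genes, and 3 of 18 mitosis genes higher (16.7%) beside 9.84%. Both shares were near the background, above it by less than 2-fold. No replication gene was called higher and no mitosis gene lower. Values were lower without overlap for 8 replication genes (29.6% beside 13.3% of all genes) and higher without overlap for 5 mitosis genes (27.8% beside 14.3%). The median log2 fold change was -0.34 for replication and 0.45 for mitosis, beside 0.02 over all genes, and -0.32 and 0.41 without DOX library exp1_2. Without that library Aurkb was no longer called (adjusted p = 0.0772) and Mcm3 was called, so that 5 of the 6 remained. That is 14.8% of the replication genes called lower beside 5.78% of the 11635 genes then tested, and 11.1% of the mitosis genes called higher beside 7.71%. Without overlap 11 replication genes were then lower (40.7% beside 17.8%) and 6 mitosis genes higher (33.3% beside 19.1%). Within experiment 1 alone, with 2 libraries per group, 2 members were called, Cdt1 and Mcm6. The comparisons share samples, so the 3 sets of fold changes are not independent.

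**Figure D2:**
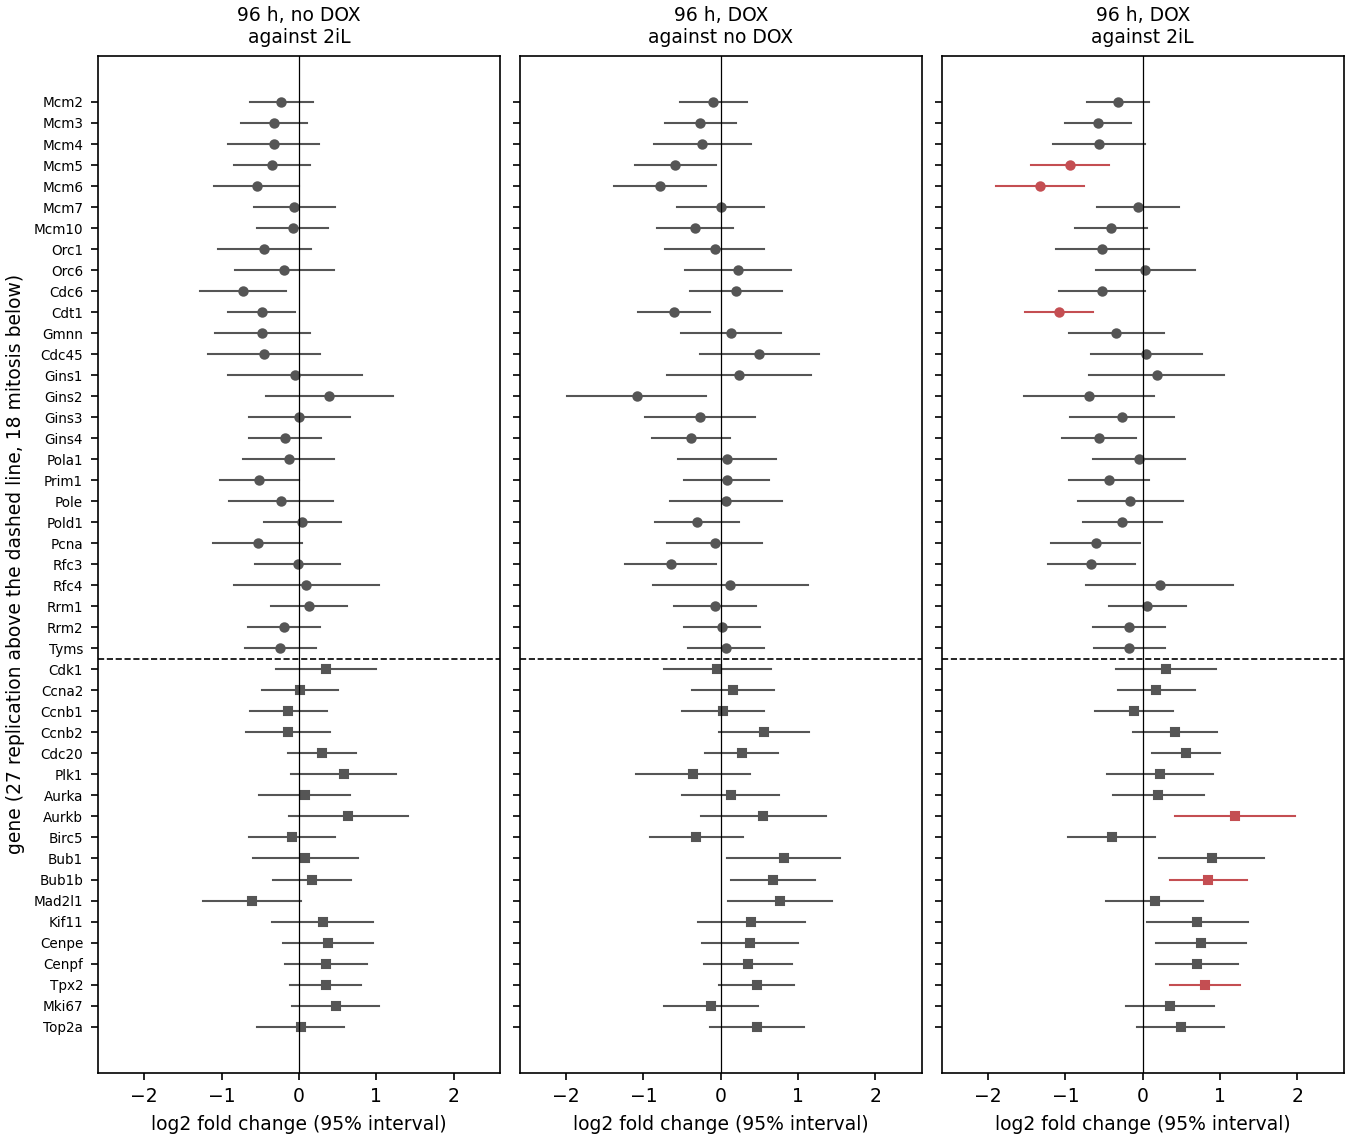
Log2 fold change with its 95% interval for each member in the 3 comparisons; circles are replication genes, squares mitosis genes, and red marks an adjusted p below 0.05 over all 11215 genes. Red appears only in the right panel, for Mcm5, Mcm6 and Cdt1 to the left of 0 and for Aurkb, Bub1b and Tpx2 to the right.

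The 3 called replication genes were all of the helicase and its loading, a role that holds 17 of the 27 replication genes. That is 17.6% of the role called lower with DOX against 2iL, beside 6.83% of all genes. Cdt1 (ENSMUSG00000006585, chromosome 8, 122568015 to 122573554, plus strand) brings the Mcm ring to origins, and its level was 342, 272, 310.2 and 261 CPM in 2iL, 235, 193 and 210.3 CPM at 96 h without DOX, and 149, 116 and 153 CPM at 96 h with DOX. The 3 groups did not overlap, with every DOX library below every no-DOX library and those below every 2iL library. Means were 296 ± 36.9, 213 ± 20.999 and 139 ± 20.6 CPM (SD, n = 4, 3 and 3). With DOX against 2iL the log2 fold change was -1.08 ± 0.21 (SE; adjusted p = 0.00122, edgeR) and -0.97 without exp1_2 (adjusted p = 0.00194). Against 2iL without DOX it was -0.48 ± 0.21 (adjusted p = 0.116, edgeR), and with DOX against no DOX -0.60 ± 0.22 (adjusted p = 0.170; -0.49 without exp1_2).

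Mcm6 and Mcm5 are subunits of the helicase ring. Mcm6 (ENSMUSG00000026355, chromosome 1, 128331590 to 128359664, minus strand) was at 281, 183, 249 and 244 CPM in 2iL, 184, 114 and 194 CPM at 96 h without DOX, and 109.6, 54.5 and 118 CPM at 96 h with DOX. All DOX libraries lay below all 2iL libraries, with exp1_2 the lowest, and the no-DOX range overlapped both. On the log2 scale the change with DOX against 2iL was -1.33 ± 0.27 (adjusted p = 0.00182, edgeR), and -1.07 without exp1_2 (0.00373). Mcm5 (ENSMUSG00000005410, chromosome 8, 75109569 to 75128439, plus strand) was at 567, 763, 668 and 597 CPM in 2iL, 453, 635 and 438 CPM at 96 h without DOX, and 418, 248 and 346 CPM at 96 h with DOX. Every DOX library was below all 7 others, and 1 no-DOX library, exp1_2, reached into the 2iL range. Its log2 fold change with DOX against 2iL was -0.94 ± 0.24 (adjusted p = 0.00945, edgeR), -0.77 without exp1_2 (0.0191), and -0.59 ± 0.25 against no DOX (adjusted p = 0.257; -0.42 without exp1_2).

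None of the other ring subunits was called with all libraries. With DOX against 2iL the log2 fold change was -0.32 for Mcm2, -0.58 for Mcm3 (adjusted p = 0.0587, edgeR), -0.56 for Mcm4 and -0.06 for Mcm7. Without exp1_2 these were -0.32, -0.64 (adjusted p = 0.0319, edgeR), -0.32 and -0.40. Mcm7 was at 463, 536, 477 and 459 CPM in 2iL, 398, 618 and 377 CPM at 96 h without DOX, and 404, 659 and 332 CPM at 96 h with DOX. Its values ran highest in the exp1_2 libraries of both 96 h groups. Mcm7 shares exon bases with 2 microRNAs on its own strand and with Ap4m1 and Cops6 on the other, and without a stated strand setting such reads cannot be told apart. The same holds for Orc1, Orc6, Cdc45, Gins2, Pole, Rfc4, Ccna2, Cdc20 and Plk1, which share exon bases with genes on the other strand.

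**Figure D3:**
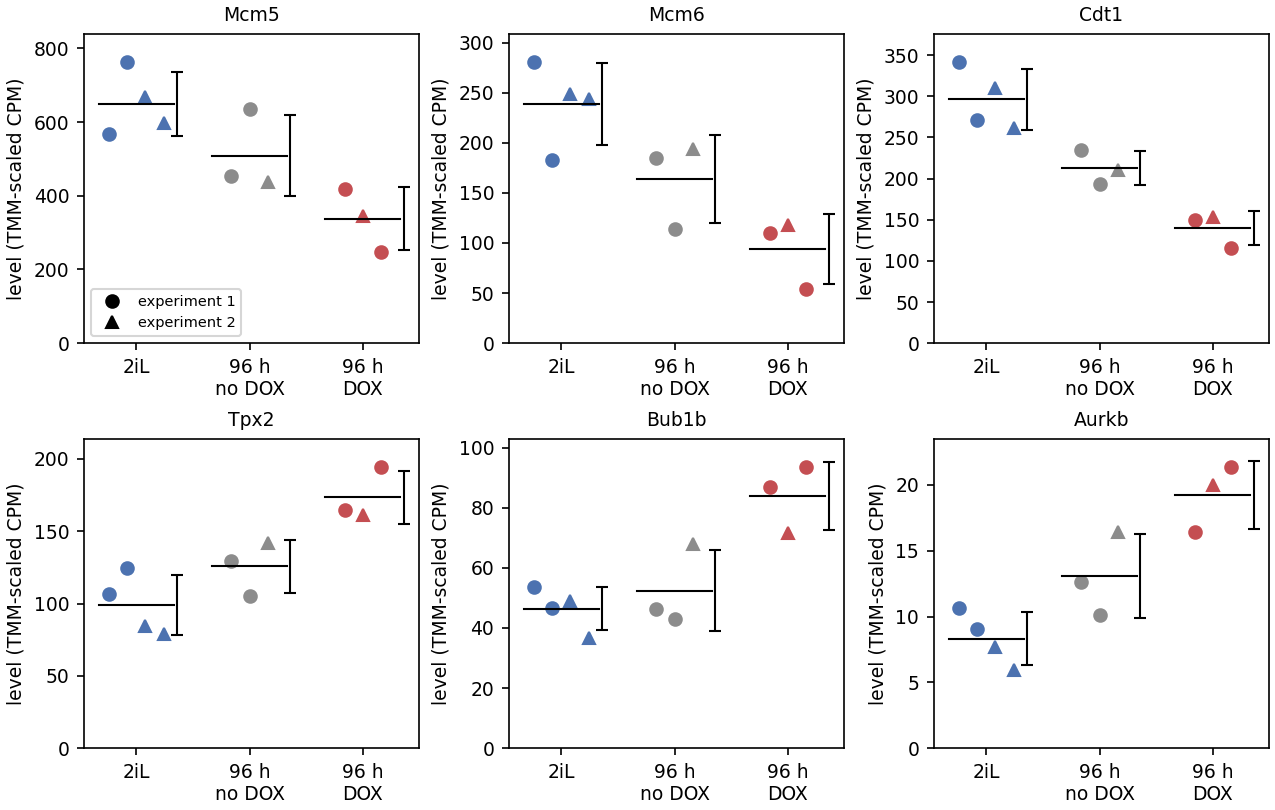
TMM-scaled CPM of the 6 members called with DOX against 2iL, for each library by group; circles are experiment 1, triangles experiment 2, lines the mean and bars 1 SD. The upper 3 genes are lower in all 3 DOX libraries than in all 4 2iL libraries, and the lower 3 are higher, for example Tpx2 at 161 to 194.5 CPM with DOX and 79.1 to 124 CPM in 2iL.

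Cdc6, which loads the ring together with Cdt1, was low without DOX and variable with it. Its level was 65.3, 80.1, 74.9 and 58.8 CPM in 2iL, 47.6, 36.9 and 42.3 CPM at 96 h without DOX, and 39.2, 33.9 and 70.99 CPM at 96 h with DOX. All no-DOX libraries were below all 2iL libraries, and among the DOX libraries exp2_1 alone was in the 2iL range. The log2 fold change without DOX against 2iL was -0.73 ± 0.27 (adjusted p = 0.0608, edgeR; 0.0421 with DESeq2). Orc6, a subunit of the origin recognition complex, was at 42.96, 48.8, 56.2 and 63.95 CPM in 2iL, 56.96, 35.2 and 47.3 CPM at 96 h without DOX, and 29.9, 46.4 and 86.05 CPM at 96 h with DOX. The DOX libraries held both the lowest and the highest of all 10 values, and no comparison passed (log2 fold changes -0.19, 0.23 and 0.03 in the order of the comparisons above; 0.31 and 0.12 for the last 2 without exp1_2). Orc1, Mcm10 and the Cdt1 inhibitor Gmnn (geminin) had log2 fold changes of -0.52, -0.41 and -0.34 with DOX against 2iL, and -0.37, -0.61 and -0.06 without exp1_2, none called.

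The factors that activate the ring showed no call and much spread. Gins2, a GINS subunit, was at 412, 192, 216 and 244 CPM in 2iL, 385, 183 and 482 CPM at 96 h without DOX, and 185, 55.99 and 247 CPM at 96 h with DOX. The DOX library exp1_2 was the lowest of all 10, and the ranges of the groups overlapped. The log2 fold change with DOX against no DOX was -1.09 ± 0.43 (adjusted p = 0.213, edgeR), and -0.70 without exp1_2. Cdc45, the third component of the active helicase, was at 29.3, 20.8, 36.9 and 35.5 CPM in 2iL, 25.8, 17.7 and 23.8 CPM at 96 h without DOX, and 32.8, 13.997 and 45.8 CPM at 96 h with DOX. Here the DOX library exp1_2 was the lowest and exp2_1 the highest of all, and the log2 fold change with DOX against no DOX was 0.50, or 0.81 without exp1_2 (adjusted p = 0.292, edgeR). Gins1 was at 10.7, 15.5, 15.05 and 17.004 CPM in 2iL, 22.3, 5.39 and 14.7 CPM at 96 h without DOX, and 13.8, 13.997 and 21.5 CPM at 96 h with DOX, with overlap between all groups. Gins3 and Gins4 had log2 fold changes of -0.26 and -0.57 with DOX against 2iL (-0.53 and -0.41 without exp1_2), and every DOX library was below all others for Gins4.

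No gene of DNA synthesis was called. For the 7 polymerase, primase, clamp and clamp-loader genes the median log2 fold change was -0.13 without DOX against 2iL, 0.07 with DOX against no DOX and -0.26 with DOX against 2iL (edgeR). At an unadjusted p below 0.05 none was lower in the first comparison and 1 (Rfc3) in the second, 14.3% beside 6.54% of all genes. In the third 2 were lower (Rfc3 and Pcna), 28.6% beside 13.0% of all genes, and none was higher in any. Without exp1_2 the last 2 medians were -0.07 and -0.30, and 0 genes passed that p. Pcna, the sliding clamp, was at 68.3, 81.6, 105 and 93.2 CPM in 2iL, 82.2, 56.3 and 42.01 CPM at 96 h without DOX, and 61.3, 36.1 and 71.6 CPM at 96 h with DOX. All but 2 of the 96 h libraries lay below every 2iL library, and the log2 fold change with DOX against 2iL was -0.61 ± 0.28 (adjusted p = 0.149, edgeR; -0.39 without exp1_2). Rfc3, a clamp-loader subunit, was at 139.9, 108, 140.1 and 104 CPM in 2iL, 110.4, 133 and 121 CPM at 96 h without DOX, and 90.5, 38.3 and 100.2 CPM at 96 h with DOX. All DOX libraries were below the other 7, and the low value of exp1_2 moved the fold change: with DOX against 2iL it was -0.67 ± 0.27 (adjusted p = 0.0988, edgeR) and -0.37 without that library.

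Rfc4, another clamp-loader subunit, was at 3.996, 24.6, 23.04 and 24.4 CPM in 2iL, 27.9, 22.6 and 10.3 CPM at 96 h without DOX, and 24.95, 19.9 and 21.2 CPM at 96 h with DOX. The 2iL library exp1_1 and the no-DOX library exp2_2 were low, and no comparison passed. Pola1, Pole and Pold1, the catalytic subunits of the replicative polymerases, had log2 fold changes of -0.05, -0.16 and -0.26 with DOX against 2iL, and the primase subunit Prim1 had -0.43. These were -0.30, -0.29, -0.15 and -0.36 without exp1_2. None of the 3 nucleotide supply genes was called. Rrm1, the large subunit of ribonucleotide reductase, was at 122, 95.6, 95.8 and 76.5 CPM in 2iL, 129, 92.5 and 98.7 CPM at 96 h without DOX, and 76.3, 129 and 101 CPM at 96 h with DOX. The groups overlapped, and the 95% interval of its log2 fold change with DOX against 2iL was -0.44 to 0.56. Rrm2, its small subunit, and Tyms, thymidylate synthase, both had log2 fold changes of -0.17 in that comparison. Without exp1_2 the values of Rrm1, Rrm2 and Tyms were -0.14, -0.05 and -0.07.

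**Figure D4:**
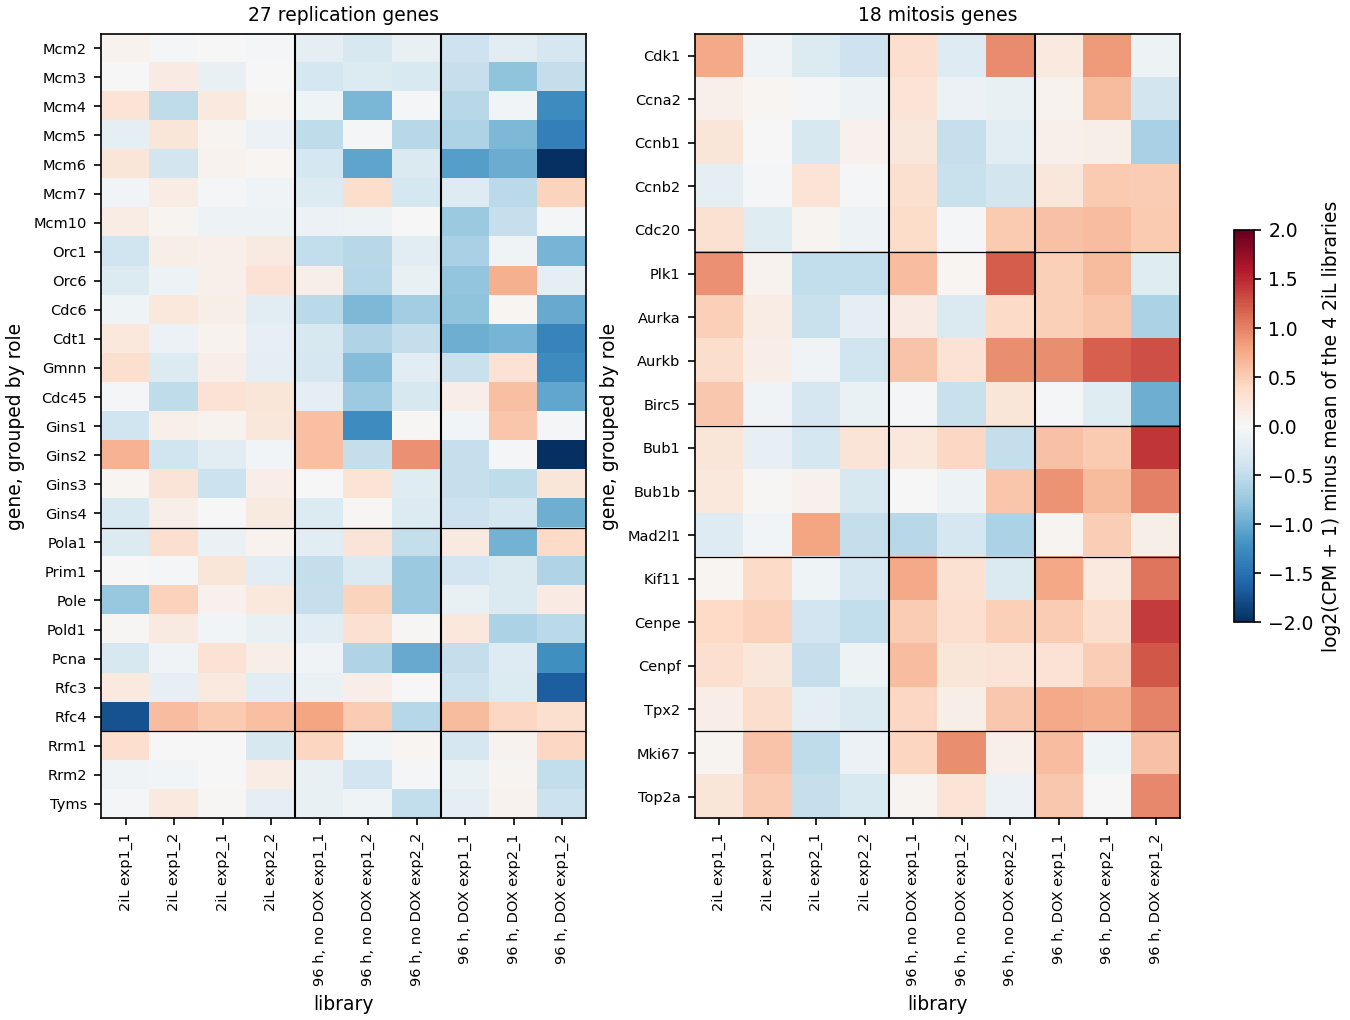
Log2(CPM + 1) of each member in each library minus its mean over the 4 2iL libraries, with rows grouped by role and colour ending at 2 in either direction, which Mcm6 and Gins2 pass in 96 h DOX exp1_2. Mcm5, Mcm6 and Cdt1 are blue in all 3 DOX columns, Aurkb, Bub1, Bub1b, Cenpe, Cenpf and Tpx2 are red there, and exp1_2 has the deepest colour for each of these.

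Among the mitosis genes with DOX against 2iL, the role with the highest median log2 fold change was the spindle checkpoint (0.85), followed by spindle motors and kinetochore (0.73), chromosome structure (0.42), cyclins with their partners (0.30) and mitotic kinases (0.21). Without exp1_2 these medians were 0.55, 0.43, 0.24, 0.37 and 0.46, so that the order of the roles below the checkpoint rested on that library. No cyclin was called. Ccnb1 (cyclin B1) was at 207, 173, 139 and 185 CPM in 2iL, 203, 126 and 151 CPM at 96 h without DOX, and 188, 110.5 and 189 CPM at 96 h with DOX. All groups overlapped, and the 95% interval of its log2 fold change with DOX against 2iL was -0.61 to 0.39. The value itself was -0.11, and 0.09 without exp1_2. Ccnb2 (cyclin B2) was at 35.97, 40.4, 50.1 and 40.3 CPM in 2iL, 51.7, 29.98 and 31.7 CPM at 96 h without DOX, and 48.5, 58.9 and 59.9 CPM at 96 h with DOX. The DOX libraries were mostly the higher ones, with overlap, and against no DOX the change was 0.56 ± 0.28 on the log2 scale (adjusted p = 0.355, edgeR; 0.52 without exp1_2). Cdk1, the kinase of both, and Ccna2 (cyclin A2) had log2 fold changes of 0.30 and 0.18 with DOX against 2iL (0.48 and 0.37 without exp1_2). Cdc20, an activator of the anaphase-promoting complex, was at 202, 192 and 205 CPM in the DOX libraries against 165, 113, 139 and 124 CPM in 2iL, without overlap, at a log2 fold change of 0.56 (adjusted p = 0.0733, edgeR; 0.59 without exp1_2).

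Among the mitotic kinases and the passenger complex, Aurkb was the 1 gene called with DOX against 2iL. Aurkb (ENSMUSG00000020897, chromosome 11, 69045647 to 69051664, plus strand) is the kinase of the chromosomal passenger complex, which corrects attachments of chromosomes to the spindle. Its level was 10.7, 9.07, 7.68 and 5.91 CPM in 2iL, 12.6, 10.1 and 16.5 CPM at 96 h without DOX, and 16.4, 21.4 and 19.98 CPM at 96 h with DOX. All DOX libraries were above all 2iL libraries, and 1 no-DOX library, exp2_2, was level with the lowest of them. The log2 fold change with DOX against 2iL was 1.19 ± 0.37 (adjusted p = 0.0312, edgeR), and it rested on 413 reads over the 10 libraries. The call was lost in 7 of 21 alternatives, among them without exp1_2 (1.12, 0.0772). Birc5 (survivin), of the same complex, was at 806, 524, 437 and 501 CPM in 2iL, 544, 407 and 651 CPM at 96 h without DOX, and 538, 279 and 468 CPM at 96 h with DOX. The DOX library exp1_2 was the lowest of all, and the log2 fold change with DOX against 2iL was -0.40 ± 0.27 (adjusted p = 0.344, edgeR; -0.18 without exp1_2). Plk1, the polo kinase of mitotic entry, was at 441, 246, 167 and 167 CPM in 2iL, 361, 242 and 543 CPM at 96 h without DOX, and 328, 197 and 364 CPM at 96 h with DOX. The 2iL library exp1_1 was far above the other 3, and the log2 fold change without DOX against 2iL was 0.58 ± 0.33 (adjusted p = 0.248, edgeR), or 0.98 without exp1_1 of 2iL (adjusted p = 0.0323). Aurka, the spindle-pole kinase, had a log2 fold change of 0.20 with DOX against 2iL, and Plk1 0.22 (0.48 and 0.44 without exp1_2).

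The spindle checkpoint holds back anaphase until all chromosomes are attached. Bub1b (BubR1; ENSMUSG00000040084, chromosome 2, 118598211 to 118641591, plus strand) is an inhibitor of the anaphase-promoting complex within it, and was at 53.6, 46.5, 48.8 and 36.6 CPM in 2iL, 46.4, 42.9 and 67.9 CPM at 96 h without DOX, and 86.7, 93.6 and 71.6 CPM at 96 h with DOX. Every DOX library was above all 7 others, the nearest being no-DOX exp2_2. Means were 46.4 ± 7.17, 52.4 ± 13.5 and 83.97 ± 11.2 CPM (SD, n = 4, 3 and 3). With DOX against 2iL the log2 fold change was 0.85 ± 0.24 (adjusted p = 0.0186, edgeR; 0.77 and 0.0478 without exp1_2), and 0.68 ± 0.26 against no DOX (adjusted p = 0.194; 0.60 without exp1_2). Against no DOX it was 1.01 in experiment 1 and 0.08 in experiment 2.

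Bub1, a kinetochore kinase of the checkpoint, was at 25.98, 19.3, 16.9 and 26.2 CPM in 2iL, 25.3, 29.3 and 15.3 CPM at 96 h without DOX, and 33.03, 60.4 and 31.7 CPM at 96 h with DOX. All DOX libraries were above the other 7, and exp1_2 was far above the other DOX libraries. Its log2 fold change with DOX against no DOX was 0.81 ± 0.35 (adjusted p = 0.262, edgeR) and 0.47 without exp1_2. Mad2l1 (Mad2), which binds Cdc20, was at 32.6, 37.7, 68.5 and 28.1 CPM in 2iL, 26.4, 30.8 and 24.97 CPM at 96 h without DOX, and 40.9, 42.7 and 55.9 CPM at 96 h with DOX. The DOX libraries were above all no-DOX libraries but not above 2iL, in which exp2_1 was the highest of all. With DOX against no DOX the change was 0.76 ± 0.32 on the log2 scale (adjusted p = 0.257, edgeR), and 0.16 against 2iL (0.81 and 0.21 without exp1_2).

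The 4 spindle motor and kinetochore genes had log2 fold changes above 0 in all 3 comparisons, except that with DOX against no DOX Cenpe was at -0.01 and Cenpf at 0.01 without exp1_2. Tpx2 (ENSMUSG00000027469, chromosome 2, 152847964 to 152895321, plus strand), which nucleates spindle microtubules and activates Aurora A, was at 107, 124, 84.8 and 79.1 CPM in 2iL, 129, 105 and 142 CPM at 96 h without DOX, and 164, 194 and 161 CPM at 96 h with DOX. Every DOX library was above all others, and the no-DOX and 2iL ranges overlapped. Means were 98.8 ± 20.8, 126 ± 18.5 and 173 ± 18.4 CPM (SD, n = 4, 3 and 3), with a log2 fold change of 0.81 ± 0.22 with DOX against 2iL (adjusted p = 0.0142, edgeR; 0.72 and 0.0304 without exp1_2). The kinetochore proteins Cenpe and Cenpf and the motor Kif11 had log2 fold changes of 0.76, 0.70 and 0.70 in that comparison. None was called (adjusted p = 0.0698, 0.0618 and 0.137, edgeR), and exp1_2 was the highest library for each. Without it the values were 0.37, 0.36 and 0.50. Mki67, which coats mitotic chromosomes and is a common marker of cycling cells, was at 105, 151, 70.9 and 93.2 CPM in 2iL, 136, 195 and 108 CPM at 96 h without DOX, and 156, 152 and 95.6 CPM at 96 h with DOX. All groups overlapped, at a log2 fold change of 0.35 ± 0.27 with DOX against 2iL. Top2a, the topoisomerase that untangles sister chromatids, had 0.49. These were 0.26 and 0.23 without exp1_2.

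No member's change differed between the experiments by an edgeR test of the difference (0 of 45 in each comparison, smallest adjusted p = 0.435). Experiment 2 held 1 library in each 96 h group, which limits that test. With DOX against 2iL all 6 called members had the same sign in both experiments. These members were chosen from the same libraries, and for each of them the DOX and 2iL values did not overlap. Agreement in sign could therefore hardly fail and is not a separate test, so the values are given as a description. The log2 fold changes in experiments 1 and 2 were -1.21 and -0.90 for Cdt1, -1.47 and -1.06 for Mcm6, and -0.99 and -0.87 for Mcm5. They were 0.63 and 0.97 for Tpx2, 0.85 and 0.74 for Bub1b, and 0.92 and 1.54 for Aurkb.

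Other genes of the same pathways, taken from lists of 38 replication, 52 mitosis, 19 regulator and 14 checkpoint genes, were read in the same fit. With DOX against 2iL, 10 of 38 further replication genes fell and none rose (edgeR). That share of 26.3% stands beside 6.83% of all genes, and the list's median was -0.40. The largest were Uhrf1 (log2 fold change -1.11, adjusted p = 0.00251, edgeR), which guides maintenance methylation behind the fork, Ticrr (-1.05), an origin firing factor, and Rpa2 (-1.01), of the single-strand binding complex. Without DOX library exp1_2, 6 were called (15.8% beside 5.78%), among them Uhrf1 (-1.09) and Rpa2 (-0.75) but not Ticrr (-0.91). In the no-DOX libraries against 2iL, 3 fell, namely Rnaseh2a (-0.98), Uhrf1 (-0.95) and Dna2 (-0.91), a share of 7.89% beside 8.90% of all genes. The polymerase delta subunit Pold3 rose (0.71), the 1 gene called higher there (2.63% beside 11.5% of all genes). Of 21 alternatives, the call was lost in 12 for Dna2, 8 for Pold3, and 1 each for Rnaseh2a and Uhrf1. Between DOX and no DOX edgeR called 0, DESeq2 2 and limma-voom 1, all lower. At an unadjusted p below 0.05, 5 were lower (13.2% beside 6.54% of all genes), and 4 without exp1_2 (10.5% beside 5.41%).

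Of the 52 further mitosis genes, 5 rose and 1 fell with DOX against 2iL, which is 9.62% higher beside 9.84% of all genes and 1.92% lower beside 6.83%, so the rises were at the background share. The spindle protein Ckap2l (1.14), the cytokinesis scaffold Anln (1.06) and the microtubule-binding Hmmr (0.92) rose most, and the kinetochore gene Spc24 fell (-0.84). Without exp1_2, 1 rose (Ckap2l, 0.88), a share of 1.92% beside 7.71% of all genes, and none fell (Anln 0.93, Hmmr 0.68, Spc24 -0.61). Anln was also the 1 gene called with DOX against no DOX (1.33, adjusted p = 0.0444, edgeR), and 0 were called there without exp1_2 (Anln 1.20). That is 1.92% beside 2.16% of all genes called higher. The Anln call against no DOX was lost in 12 of 21 alternatives. In the no-DOX libraries Cks1b, a Cdk1-binding protein, rose against 2iL (0.88). It was the 1 gene called there (1.92% beside 11.5% of all genes called higher), a share below the background. The median of the list was 0.10, 0.23 and 0.40 in the 3 comparisons, and 0.08 and 0.29 in the last 2 without exp1_2.

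Of 18 tested regulators of the G1/S and late cell cycle programs, 5 changed without DOX against 2iL and 4 with DOX against 2iL (edgeR). The shares were 16.7% higher and 11.1% lower beside 11.5% and 8.90% of all genes in the first, and 11.1% in either direction beside 9.84% and 6.83% in the second, near the background. Between DOX and no DOX edgeR called 0, limma-voom 0 and DESeq2 2, and 4 passed an unadjusted p below 0.05. Of these 2 were higher and 2 lower (11.1% each, beside 8.48% and 6.54% of all genes). Without exp1_2 edgeR called 1 there, Mybl2, which was higher (5.56% beside 1.61% of all genes). E2f1, an activator of S phase genes, fell against 2iL, at log2 fold changes of -1.08 without DOX and -1.58 with DOX (adjusted p = 0.0109 and 0.000904, edgeR; -1.38 with DOX without exp1_2). Its means were 134 ± 39.5, 63.9 ± 20.9 and 44.1 ± 13.6 CPM (SD, n = 4, 3 and 3) in 2iL, without DOX and with DOX. Mybl2, which acts with late cell cycle complexes, fell without DOX (-1.54), and the pocket protein gene Rbl1 fell with DOX (-1.49). Rb1 rose in both (2.99 and 2.82) from 0.793 ± 0.695 CPM in 2iL to 6.68 ± 5.16 and 6.01 ± 3.18 CPM, a low level with a spread near its mean. The repressors E2f7 (1.20) and E2f8 (0.89) rose without DOX, and Tfdp2 (0.85), a partner of E2F proteins, rose with DOX. The E2f8 call was lost in 10 of 21 alternatives and the E2f7 call in 2. Without exp1_2 the 2 rises with DOX were not called (Rb1 2.66, Tfdp2 0.58), and both falls were (Rbl1 -1.53). Of 14 checkpoint genes, Cdc25a, the phosphatase that activates Cdk2, was the 1 called, lower with DOX against 2iL (-0.99, adjusted p = 0.00307, edgeR; -0.84 without exp1_2, also called). That is 7.14% beside 6.83% of all genes. In the other comparisons edgeR, DESeq2 and limma-voom called 0 of the 14, and 2 in each passed an unadjusted p below 0.05. Without DOX against 2iL both were lower (14.3% beside 14.1% of all genes). With DOX against no DOX 1 was higher and 1 lower (7.14% each, beside 8.48% and 6.54%), so these shares were near the background.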

How the data were processed

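Read counts per gene, which the authors deposited for 10 libraries, were used for every test. The submitters' processing notes name STAR 2.6.0a, HTSeq and mm10, with no annotation release or strand setting. The summary lines of the count tables (62.7% to 68.4% of reads, mostly with several alignments) were left out. Symbols matched 30934 of 31053 gene IDs, and positions are from GENCODE on GRCm38/mm10.

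Genes were kept with filterByExpr (minimum count 10), scaled by TMM and fitted over all 10 libraries with edgeR 4.0.16 in R 4.3.3 (quasi-likelihood, robust, no covariate). A gene was called where its p-value, adjusted by Benjamini-Hochberg over all 11215 tested genes, was below 0.05. Levels are TMM-scaled CPM. The script was tested on simulated data. Alternatives used DESeq2 1.42.0, limma 3.58.1, other filters, scalings and blocks, and each library left out.

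The members, lists and motifs were chosen with earlier results of these data known. Values in every library are given for called members and for the 3 largest rises and falls per set and comparison. Of the other lists, up to 3 called genes per comparison and direction are named, and up to 4 promoters of members with values in full are printed. Motif counts used the 250 bases before each RefSeq start. No 2 libraries agreed within sampling noise.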

Additional observations from a re-analysis of the deposited data

Results flagged for a closer look

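Rfc4, a clamp-loader gene, was at 3.996 CPM in 2iL library exp1_1, against 23.0 to 24.6 CPM in the other 3 2iL libraries. The gap to the nearest library was 0.926 of the group's range, above Dixon's 95% critical value for 4 samples. The 45 members were examined in the 2iL group, and chance alone puts about 1 in 20 groups past that value. Rfc4 shares exon bases with Eif4a2 on the other strand, and any part of this in the low value was not tested.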

How the results depend on the processing

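Of 2183 recomputed values 2042 kept their side of the threshold (or stayed within 1 SD or 1.5 times), and 0 called values changed sign. Fold changes uncalled in both fits counted as kept whatever their sign. Birc5 without DOX against 2iL, for example, ran from -0.50 to 0.13 on the log2 scale. In experiment 1 alone the calls over all genes were 1226 without DOX against 2iL, 108 with DOX against no DOX and 926 with DOX against 2iL, in place of 2289, 348 and 1870. There the mitosis median without DOX against 2iL was -0.0085, and 0 mitosis members were called with DOX against 2iL. For DOX against no DOX, all-gene calls were 563 with DESeq2, 212 with only the compared groups, and 161 to 358 with a library left out (161 without no-DOX exp1_1, 181 without no-DOX exp2_2). Replication members without DOX against 2iL numbered 1 with DESeq2, limma-voom or only the compared groups, and 0 to 2 with a library left out. Mitosis members there numbered 0 to 1 with a library left out (Plk1 without 2iL exp1_1). Mitosis members with DOX against 2iL numbered 7 with library totals only, 6 with DESeq2, and 1 to 5 with a library left out (1 without 2iL exp2_2, 5 without DOX exp1_1). Library totals moved the median of all genes in that comparison from 0.02 to 0.17, so 7 is read against that shift. Replication members with DOX against 2iL numbered 2 to 4 throughout. Cdt1 and Mcm6 stayed called in all 21 alternatives, Mcm5 and Tpx2 in 20, Bub1b in 19 and Aurkb in 14. Same-numbered libraries of an experiment correlated at -0.0953 to 0.205 in their deviations from group means, and all other pairs across groups at -0.179 to 0.136. With so few libraries per group these values cannot decide whether the numbers pair libraries. With a replicate block built from experiment and number together, calls over all genes were 1973, 159 and 1591, and the same members except Aurkb were called. With experiment alone as a block, Mcm3 was called too. Apart from the members and settings named, the cause of each move was not tested. DOX exp1_2, with 1253620 reads, measures genes of low level such as Aurkb least well.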
